A study of Mus musculus with 12 samples.

Results

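The unfolded protein response is the program by which a cell adjusts the folding capacity of its endoplasmic reticulum (ER), the compartment where secreted and membrane proteins are folded. Here 10 genes of that program were described in mouse lung: Hspa5, Dnajb9, Hyou1, Sdf2l1, Pdia4, Manf, Creld2, Xbp1, Herpud1 and Sel1l. They were chosen by name, with earlier results of these data known. Counts of the group set beside shares of all genes therefore describe it and are not a test. Each gene was read from the array probe that the platform annotation pairs with that symbol alone, taking the probe with the highest mean where a gene had several. A value was available for 9 of the 10 genes, among 22180 genes measured in all. The single probe of Pdia4, an ER disulfide isomerase, is also paired with Mir704, so no value is given for Pdia4. Although the group was assembled as ER chaperones, it also holds a transcription factor, Xbp1, and parts of the degradation machinery, Herpud1 and Sel1l.

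When unfolded proteins accumulate in the ER, the membrane sensors IRE1, PERK and ATF6 become active. IRE1, encoded by Ern1, splices the mRNA of Xbp1, and the protein made from the spliced mRNA induces ER chaperones and genes of ER-associated degradation. Cleaved ATF6 acts on chaperone promoters, while PERK slows translation and raises the transcription factors ATF4 and CHOP. In the lung the program is best known in alveolar type 2 cells, which secrete large amounts of surfactant protein, and in plasma cells, which secrete antibody.

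RNA of whole lung was hybridised to one-colour Affymetrix arrays, 1 per mouse, from 12 female mice aged 10 weeks. The 4 groups of 3 mice were Zmpste24-/- ventilated, Zmpste24-/- baseline, wild type ventilated and wild type baseline. Zmpste24 encodes the metalloprotease that matures prelamin A, a protein of the nuclear lamina. The ventilated mice of both genotypes received positive pressure ventilation for 2.5 h at 15 cmH2O with no end-expiratory pressure (ZEEP), at 100 breaths per min and an oxygen fraction of 0.21, and the baseline mice were intact. The labels do not name the strain, how the Zmpste24 allele was made, or any anaesthesia. Since the baseline mice were intact, ventilation cannot be told apart from anything else done to the ventilated mice alone. In whole lung, fewer cells of a type and less RNA per cell cannot be told apart.

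All values below are log2 expression values as the authors normalized them, so a difference of 1 is a doubling. Array medians lay between 5.35 and 5.42. Correlations across probes ran from 0.986 to 0.992 within a group and from 0.970 to 0.988 across groups. Zmpste24 itself was at 5.01, 5.73 and 5.43 in Zmpste24-/- ventilated lungs and 5.91, 5.31 and 5.44 in Zmpste24-/- baseline lungs, while wild type lungs had 8.50, 9.28 and 8.91 after ventilation and 9.0, 9.02 and 8.50 at baseline. The labels of genotype were thus borne out on all 12 arrays, although the position of the probe relative to the deleted part is not given. Alveolar type 2 markers averaged 11.46 to 11.71 in Zmpste24-/- ventilated, 11.65 to 11.68 in Zmpste24-/- baseline, 11.58 to 11.78 in wild type ventilated and 11.46 to 11.68 in wild type baseline lungs. In a set of 6 liver genes, array 2 of the wild type baseline lungs stood apart with a mean of 7.80. The other wild type baseline arrays were at 5.68 (array 1) and 6.06. Means were 4.55 to 4.68 in Zmpste24-/- ventilated, 4.44 to 4.62 in Zmpste24-/- baseline and 4.65 to 5.78 in wild type ventilated lungs. The 5.78 of wild type ventilated array 1 lay above wild type baseline array 1, so these groups overlapped. Because of array 2, results of the 9 genes that involve wild type baseline lungs are also given without it. The remaining wild type baseline arrays still lay above all Zmpste24-/- arrays in liver genes. Leaving out array 2 thus lowers this difference and does not remove it.

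The promoters show which known stress response letters these genes carry close to their start. RefSeq windows on GRCm38.p6, from 250 bases before to 50 after the annotated start, were available for 8 of the 10 genes. The searches covered both strands. They used the ER stress response element (ERSE, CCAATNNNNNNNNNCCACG), ERSE-II (ATTGGNCCACG), the core of the unfolded protein response element (UPRE, TGACGTGG) and CCACG alone. CCACG is contained in the first 2 motifs and in the reverse complement of the third. Shown here are the 3 genes that rose with ventilation in Zmpste24-/- lungs (Hspa5, Dnajb9 and Xbp1), Herpud1, the gene that differed between genotypes at baseline, and Creld2, the other carrier of an ERSE. Each is written 5′ to 3′ on the strand of its gene, and capitals mark every match to any of the 4 motifs on either strand.
Hspa5: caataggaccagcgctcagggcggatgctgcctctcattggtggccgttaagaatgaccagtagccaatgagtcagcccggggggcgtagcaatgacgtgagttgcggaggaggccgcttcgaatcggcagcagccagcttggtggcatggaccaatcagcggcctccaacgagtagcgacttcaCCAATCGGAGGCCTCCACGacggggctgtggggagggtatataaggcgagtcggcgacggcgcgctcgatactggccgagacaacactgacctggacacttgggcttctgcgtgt
Dnajb9: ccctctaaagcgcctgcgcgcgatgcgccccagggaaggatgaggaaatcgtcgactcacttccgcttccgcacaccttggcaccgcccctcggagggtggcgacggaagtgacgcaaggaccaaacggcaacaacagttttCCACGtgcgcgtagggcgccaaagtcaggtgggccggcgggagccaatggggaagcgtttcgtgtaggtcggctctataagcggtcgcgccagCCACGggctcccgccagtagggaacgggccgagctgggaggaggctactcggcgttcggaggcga
Xbp1: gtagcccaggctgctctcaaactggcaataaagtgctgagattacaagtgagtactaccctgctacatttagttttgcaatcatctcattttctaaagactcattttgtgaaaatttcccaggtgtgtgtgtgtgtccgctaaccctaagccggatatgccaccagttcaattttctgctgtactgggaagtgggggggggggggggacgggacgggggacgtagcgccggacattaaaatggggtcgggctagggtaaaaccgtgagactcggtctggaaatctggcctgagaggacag
Herpud1: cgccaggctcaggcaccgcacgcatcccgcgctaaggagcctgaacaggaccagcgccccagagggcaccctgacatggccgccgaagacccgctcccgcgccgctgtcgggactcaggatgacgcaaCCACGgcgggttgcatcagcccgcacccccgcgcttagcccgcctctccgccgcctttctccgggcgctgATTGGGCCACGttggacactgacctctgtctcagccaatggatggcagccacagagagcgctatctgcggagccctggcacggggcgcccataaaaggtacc
Creld2: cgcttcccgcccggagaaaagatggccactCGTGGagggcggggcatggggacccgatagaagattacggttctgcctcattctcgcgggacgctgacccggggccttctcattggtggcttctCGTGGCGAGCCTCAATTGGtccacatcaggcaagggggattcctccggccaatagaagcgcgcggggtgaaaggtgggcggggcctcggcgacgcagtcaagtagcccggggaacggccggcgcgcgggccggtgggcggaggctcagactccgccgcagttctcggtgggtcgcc

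These windows lie at chr2:34771840-34772139 (plus strand) for Hspa5, chr12:44210019-44210318 (minus strand) for Dnajb9, chr11:5520391-5520690 (plus strand) for Xbp1, chr8:94386179-94386478 (plus strand) for Herpud1 and chr15:88819396-88819695 (plus strand) for Creld2. An ERSE was present in 2 of the 8 windows, against 0.119% of 32851 promoter windows. In Hspa5 it began at base -65 from the start. In Creld2 it lay on the reverse strand, and its most upstream base on the strand of the gene was -126. An ERSE-II was present in 1 of 8, Herpud1, at base -52, against 0.0365% of all windows. The UPRE core was found in 0 of 8 windows and in 0.676% of all windows. CCACG alone, which 32.8% of all windows hold, was found in 7 of 8, at bases -108 and -15 in Dnajb9, and not in Xbp1. A match describes letters in this window and not binding.

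Among the chaperones, Hspa5 rose with ventilation in both genotypes. Hspa5 encodes BiP, the Hsp70 chaperone of the ER lumen that also holds the sensors inactive. It was at 9.44, 9.49 and 9.71 in Zmpste24-/- ventilated lungs, against 8.68, 8.34 and 8.61 in Zmpste24-/- baseline lungs. In wild type it was at 9.01, 8.86 and 9.21 in ventilated lungs, against 8.53, 8.59 and 8.71 in baseline lungs. Ventilated arrays lay above baseline arrays without overlap in both genotypes, and the Zmpste24-/- ventilated arrays lay above all others. Hspa5 rose with ventilation by 1.00 ± 0.12 (SE; 95% interval 0.75 to 1.25, limma adjusted p = 6.81e-05) in Zmpste24-/- lungs, a fold change of 2.00. The rise in wild type lungs was 0.42 ± 0.12 (0.17 to 0.67, limma adjusted p = 0.0456), a fold change of 1.33. The wild type call stood close to the threshold. It was lost when any 1 of 8 arrays was left out (each wild type baseline array, wild type ventilated arrays 1 and 3, Zmpste24-/- baseline array 3, or Zmpste24-/- ventilated arrays 1 and 2), with adjusted p up to 0.190 and a difference of 0.32 without wild type ventilated array 3. With the array of highest liver gene level left out (wild type baseline array 2), the difference was 0.41 with adjusted p = 0.114.

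Dnajb9 encodes ERdj4, a J-domain co-chaperone of BiP. Its values were 9.66, 9.92 and 10.09 in Zmpste24-/- ventilated lungs, against 9.29, 8.88 and 8.99 in Zmpste24-/- baseline lungs. Wild type ventilated lungs had 9.05 on all 3 arrays, against 8.82, 8.92 and 8.61 in wild type baseline lungs. The groups did not overlap in either genotype, and the Zmpste24-/- ventilated arrays were again the highest of the 12. Dnajb9 rose by 0.84 ± 0.13 with ventilation in Zmpste24-/- lungs (95% interval 0.57 to 1.11, limma adjusted p = 0.000461), a fold change of 1.79. In wild type lungs the difference of 0.27 ± 0.13 did not pass (limma adjusted p = 0.242).

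The other 2 measured chaperone genes of the group, Hyou1 and Sdf2l1, did not pass in either genotype. Hyou1 encodes Grp170, which exchanges the nucleotide of BiP. It was at 8.94, 8.77 and 9.12 in Zmpste24-/- ventilated lungs, against 8.78, 8.55 and 8.70 in Zmpste24-/- baseline lungs, with the lowest ventilated array just under the highest baseline array. In wild type it was at 8.79, 8.80 and 8.97 in ventilated lungs, against 8.53, 8.60 and 8.64 in baseline lungs, with no overlap. The differences with ventilation were nearly equal, 0.27 ± 0.10 in Zmpste24-/- lungs (95% interval 0.05 to 0.48, limma adjusted p = 0.0911) and 0.26 ± 0.10 in wild type lungs (0.05 to 0.48, limma adjusted p = 0.144). The Zmpste24-/- difference ran from 0.18 to 0.35 as single arrays were left out. It was 0.18 without Zmpste24-/- ventilated array 3 (limma adjusted p = 0.352) and 0.35 without Zmpste24-/- ventilated array 2, where it passed (limma adjusted p = 0.0443). After renewed quantile normalization it was 0.17 (limma adjusted p = 0.319).

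Sdf2l1, an ER-resident component of chaperone complexes, was at 6.65, 6.39 and 6.84 in Zmpste24-/- ventilated lungs, against 7.01, 6.64 and 6.87 in Zmpste24-/- baseline lungs. In wild type it was at 6.67, 6.77 and 6.81 in ventilated lungs, against 6.50, 6.67 and 6.72 in baseline lungs. The arrays of all 4 groups overlapped. The difference with ventilation was -0.21 ± 0.12 in Zmpste24-/- lungs (95% interval -0.47 to 0.05, limma adjusted p = 0.301) and 0.12 ± 0.12 in wild type lungs (limma adjusted p = 0.655).

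Manf and Creld2 encode small ER proteins that are induced by ER stress and can be secreted. Manf was at 6.33, 6.35 and 6.44 in Zmpste24-/- ventilated lungs, against 6.21, 6.00 and 6.13 in Zmpste24-/- baseline lungs, which did not overlap. In wild type, Manf was at 6.13, 5.87 and 6.24 in ventilated lungs, against 5.83, 6.13 and 5.94 in baseline lungs, which did. Neither difference passed: 0.26 ± 0.11 in Zmpste24-/- lungs (95% interval 0.03 to 0.49, limma adjusted p = 0.128) and 0.11 ± 0.11 in wild type lungs (limma adjusted p = 0.627). Creld2 was at 8.60, 8.55 and 8.72 in Zmpste24-/- ventilated lungs, against 8.61, 8.33 and 8.58 in Zmpste24-/- baseline lungs, and at 8.40, 8.13 and 8.33 in wild type ventilated lungs, against 8.18, 8.13 and 8.47 in wild type baseline lungs. Its ventilated and baseline arrays overlapped in both genotypes, with differences of 0.12 ± 0.11 in Zmpste24-/- lungs (limma adjusted p = 0.595) and 0.03 ± 0.11 in wild type lungs (limma adjusted p = 0.923).

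Xbp1 encodes the transcription factor of the IRE1 branch. The array gives 1 value per gene and does not separate the spliced from the unspliced mRNA. Xbp1 was at 9.99, 10.02 and 10.05 in Zmpste24-/- ventilated lungs, against 9.53, 9.38 and 9.28 in Zmpste24-/- baseline lungs. Wild type had 9.74, 9.49 and 9.52 in ventilated lungs, against 9.26, 9.43 and 9.43 in baseline lungs. In neither genotype did arrays of the 2 conditions overlap. Xbp1 rose with ventilation by 0.62 ± 0.09 in Zmpste24-/- lungs (95% interval 0.42 to 0.82, limma adjusted p = 0.000511), a fold change of 1.54. The wild type difference was 0.21 ± 0.09 and did not pass (limma adjusted p = 0.231).

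Of the degradation genes, Herpud1 passed for ventilation in wild type lungs and Sel1l in neither genotype. Herpud1 encodes a ubiquitin-like ER membrane protein that assembles degradation complexes. Its values were 10.73, 10.57 and 10.51 in Zmpste24-/- ventilated lungs, against 10.64, 10.35 and 10.31 in Zmpste24-/- baseline lungs, which overlapped. In wild type it was at 10.23, 10.30 and 10.34 in ventilated lungs, against 9.95, 9.81 and 10.00 in baseline lungs, which did not. Herpud1 rose with ventilation in wild type lungs, by 0.37 ± 0.10 (95% interval 0.15 to 0.59, limma adjusted p = 0.0411), a fold change of 1.29. In Zmpste24-/- lungs the difference was 0.17 ± 0.10 and did not pass (-0.05 to 0.38, limma adjusted p = 0.333). Single arrays moved that value from 0.10, without Zmpste24-/- baseline array 3 or Zmpste24-/- ventilated array 1, to 0.27, without Zmpste24-/- baseline array 1 (limma adjusted p = 0.0892), and it passed in none of these cases. The wild type call was lost when any 1 of the 6 wild type arrays or Zmpste24-/- ventilated array 2 was left out, with adjusted p up to 0.141 without wild type baseline array 2 or wild type ventilated array 3.

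Sel1l, the adaptor of the ubiquitin ligase Hrd1, was the most even of the 9 genes. It was at 9.45, 9.50 and 9.53 in Zmpste24-/- ventilated lungs, against 9.58, 9.40 and 9.46 in Zmpste24-/- baseline lungs, and at 9.41, 9.59 and 9.53 in wild type ventilated lungs, against 9.50, 9.54 and 9.55 in wild type baseline lungs. Ventilation differences were 0.01 ± 0.08 in Zmpste24-/- lungs (95% interval -0.16 to 0.18, limma adjusted p = 0.953) and -0.02 ± 0.08 in wild type lungs (limma adjusted p = 0.934). The group means of Sel1l spanned 0.05, while those of the other 8 genes spanned 0.21 (Sdf2l1) to 1.11 (Dnajb9), and the pooled SD within groups ran from 0.07 for Sel1l to 0.17 for Dnajb9.

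**Figure D1:**
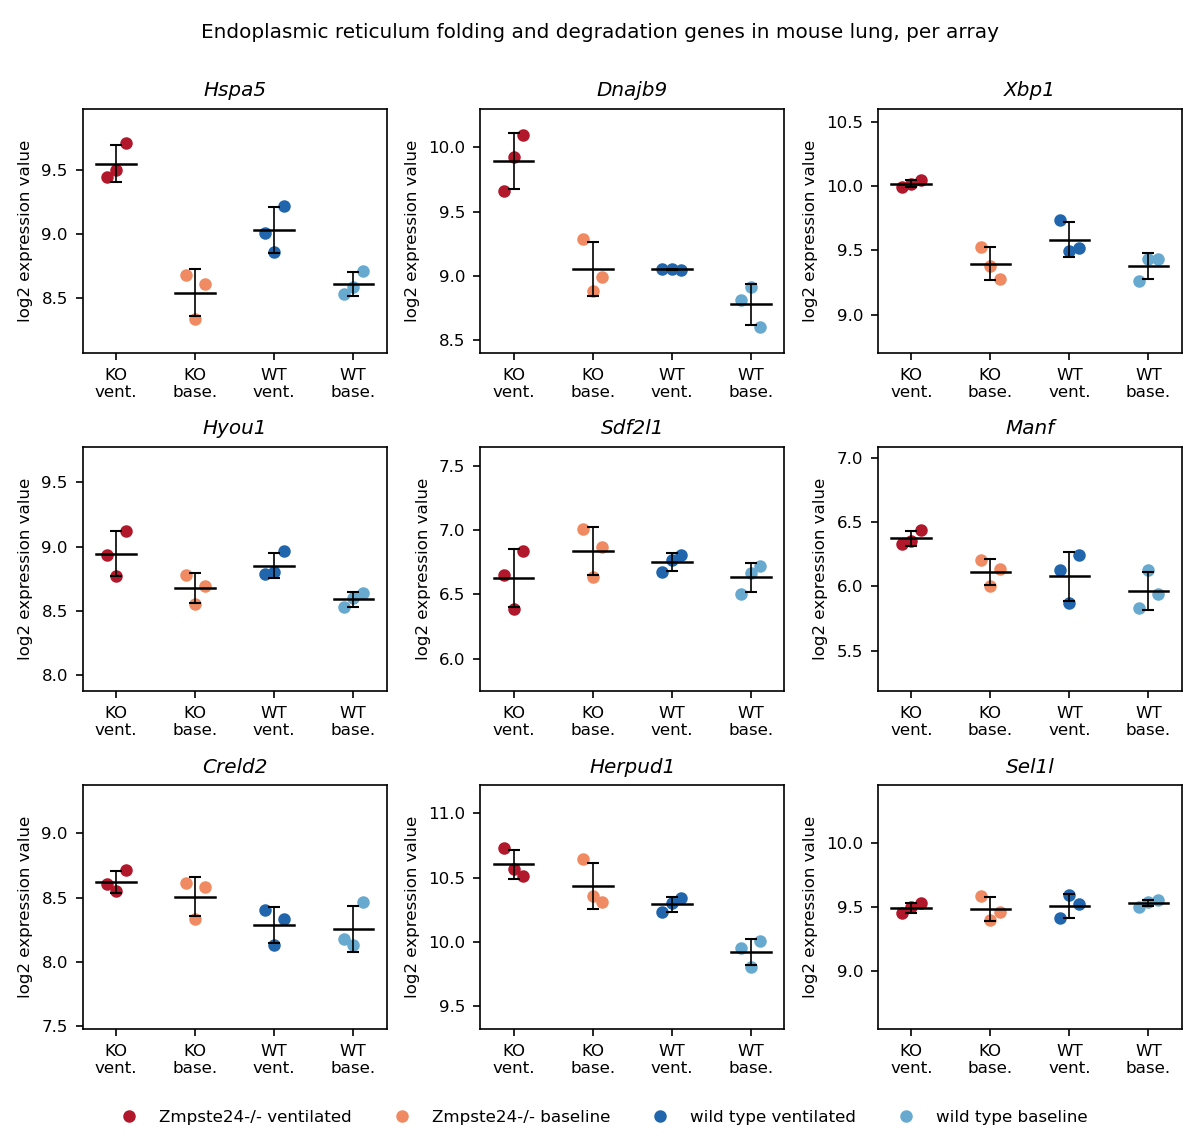
Log2 expression value of the 9 measured genes on each of the 12 arrays (y axes, each spanning the same log2 range), by group along the x axes; KO is Zmpste24-/-, WT is wild type, vent. is ventilated and base. is baseline. Points are arrays and bars are the mean ± SD of 3; the red points of Zmpste24-/- ventilated lungs lie above every other point for Hspa5, Dnajb9, Xbp1 and Manf.

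In Zmpste24-/- lungs, 3 of the 9 genes rose with ventilation and 0 fell, against a background of 8.89% of all genes higher and 7.52% lower (limma, adjusted p under 0.05). The 3 that rose were Hspa5, Dnajb9 and Xbp1. In wild type lungs 2 of 9 rose, Hspa5 and Herpud1, against 3.67% of all genes higher, and 0 fell, against 3.53% lower. The number of genes passing in wild type lungs was 0 when any 1 of 6 arrays was left out: a wild type baseline array, wild type ventilated array 1 or 3, or Zmpste24-/- ventilated array 2. Ventilated arrays lay wholly above baseline arrays for 4 of 9 genes in Zmpste24-/- lungs (Hspa5, Dnajb9, Xbp1 and Manf), beside 16.6% of all genes. In wild type lungs they did so for 5 of 9 (Hspa5, Dnajb9, Xbp1, Hyou1 and Herpud1), beside 10.8% of all genes. The median difference of the 9 genes was 0.26 in Zmpste24-/- lungs and 0.21 in wild type lungs, beside -0.01 over all genes in each.

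**Figure D2:**
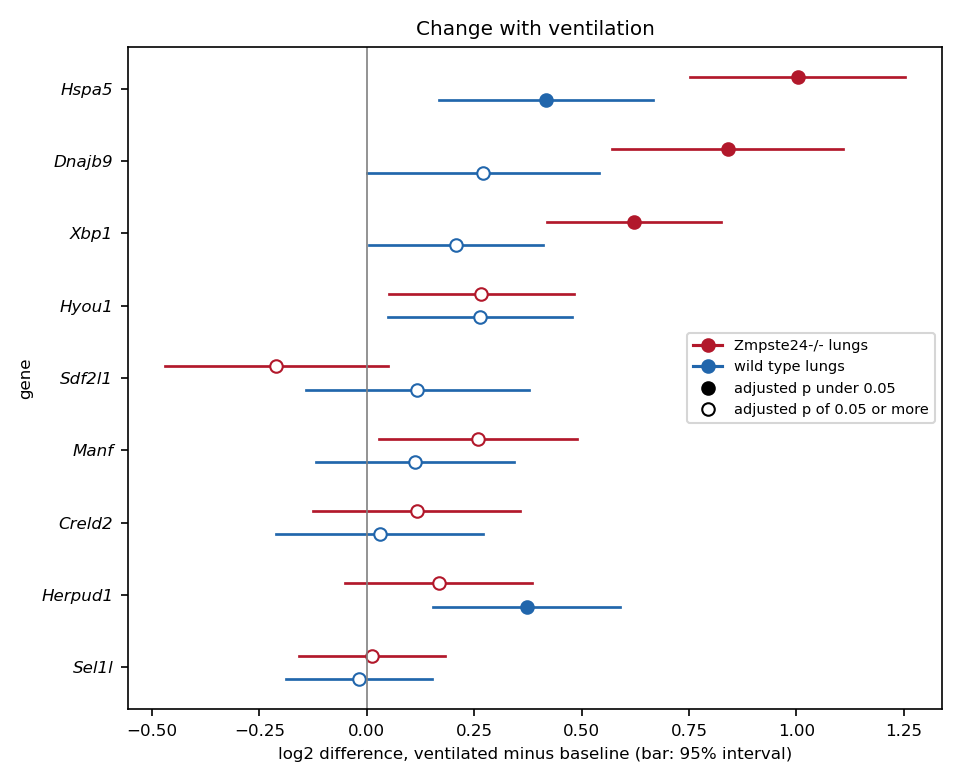
Log2 difference of ventilated minus baseline lungs (x axis) for the 9 measured genes (y axis) in Zmpste24-/- and wild type lungs, from limma over 12 arrays; bars are 95% intervals, filled points have an adjusted p under 0.05 and open points 0.05 or more. Hspa5 (1.00 and 0.42) was filled in both genotypes, Dnajb9 and Xbp1 in Zmpste24-/- lungs and Herpud1 in wild type lungs.

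Whether the response to ventilation differed between genotypes was tested as the interaction, the ventilation difference in Zmpste24-/- lungs minus that in wild type lungs. By limma, 0 of the 9 genes passed after adjustment, where 0.316% of all genes did. At an unadjusted p under 0.05 there were 3 of 9, beside 11.7% of all genes: Hspa5, Dnajb9 and Xbp1. The interaction of Hspa5 was 0.59 ± 0.16 (95% interval 0.23 to 0.94, adjusted p = 0.159, 0.0979 to 0.316 over the alternatives). It was 0.57 ± 0.18 for Dnajb9 (limma adjusted p = 0.198, 0.116 to 0.380 over the alternatives) and 0.42 ± 0.13 for Xbp1 (limma adjusted p = 0.211, 0.126 to 0.390 over the alternatives). A different size of response in the 2 genotypes was therefore not established for these genes. For Hyou1 the estimate was 0.00 ± 0.14, with a 95% interval of -0.30 to 0.31, and for Herpud1 it was -0.20 ± 0.14 (limma adjusted p = 0.647). Sdf2l1 had the most negative estimate, -0.33 ± 0.17 (limma adjusted p = 0.496).

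At baseline, lack of Zmpste24 went with a higher level of 1 of the 9 genes, Herpud1, beside 2.2% of all genes higher, and 0 were lower, beside 4.11% of all genes. Herpud1 averaged 10.44 ± 0.18 in Zmpste24-/- lungs and 9.92 ± 0.10 in wild type lungs (SD, n = 3 each). The difference was 0.52 ± 0.10 (95% interval 0.30 to 0.73, limma adjusted p = 0.00927), a fold change of 1.43. Herpud1 was also the 1 gene of 9 whose Zmpste24-/- baseline arrays lay wholly above the wild type ones, beside 9.67% of all genes. Without wild type baseline array 2 it was 0.46 and still passed (limma adjusted p = 0.0403). The BiP gene Hspa5 averaged 8.54 ± 0.18 in Zmpste24-/- lungs and 8.61 ± 0.09 in wild type lungs, a difference of -0.07 ± 0.12 (limma adjusted p = 0.808). Xbp1 averaged 9.40 ± 0.13 in Zmpste24-/- lungs and 9.38 ± 0.10 in wild type lungs, a difference of 0.02 ± 0.09 (limma adjusted p = 0.940). The differences of Dnajb9 (0.28 ± 0.13, limma adjusted p = 0.229), Creld2 (0.25 ± 0.11, limma adjusted p = 0.221) and Sdf2l1 (0.20 ± 0.12, limma adjusted p = 0.367) did not pass. Manf, Hyou1 and Sel1l differed by 0.15, 0.09 and -0.05, with limma adjusted p from 0.483 to 0.790. The median over the 9 genes was 0.15, beside -0.01 over all genes.

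Under ventilation, Dnajb9, Hspa5 and Xbp1 were higher in Zmpste24-/- than in wild type lungs, 3 of 9 genes beside 4.72% of all genes, and 0 of 9 were lower, beside 6.08%. This comparison shares its Zmpste24-/- arrays with the ventilation comparison above, so the results of the pair are not independent. Dnajb9 averaged 9.89 ± 0.22 in Zmpste24-/- lungs and 9.05 ± 0.002 in wild type lungs (SD, n = 3 each), a difference of 0.84 ± 0.13 (95% interval 0.57 to 1.11, limma adjusted p = 0.00111). The small SD of the wild type ventilated arrays is a property of these 3 values, and the test uses the spread of all 4 groups. Hspa5 averaged 9.55 ± 0.14 in Zmpste24-/- lungs and 9.03 ± 0.18 in wild type lungs, a difference of 0.52 ± 0.12 (0.27 to 0.77, limma adjusted p = 0.0116). That call was lost without wild type ventilated array 2 (0.43, limma adjusted p = 0.0584) or without Zmpste24-/- ventilated array 3 (0.44, limma adjusted p = 0.0579). Xbp1 averaged 10.02 ± 0.03 in Zmpste24-/- lungs and 9.58 ± 0.14 in wild type lungs, a difference of 0.44 ± 0.09 (0.23 to 0.64, limma adjusted p = 0.0096).

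Creld2, Herpud1 and Manf came next, each with Zmpste24-/- ventilated arrays above wild type ventilated arrays without overlap. Their differences were 0.34 ± 0.11 (limma adjusted p = 0.0735), 0.31 ± 0.10 (limma adjusted p = 0.0676) and 0.30 ± 0.11 (limma adjusted p = 0.0994), none of which passed. In all, 6 of the 9 genes were higher without overlap of arrays, beside 14.8% of all genes. These calls changed with the scaling. With array medians subtracted, Creld2 was at 0.39 and Herpud1 at 0.37, and both passed (limma adjusted p = 0.0427 and 0.0433), while Manf was at 0.35 and did not (limma adjusted p = 0.054). After renewed quantile normalization, Creld2 was at 0.30 and Herpud1 at 0.22, and neither passed (limma adjusted p = 0.112 and 0.205), while Manf was at 0.39 and did (limma adjusted p = 0.0381). Without wild type ventilated array 2, Manf was at 0.19 (limma adjusted p = 0.345) and Creld2 at 0.26 (limma adjusted p = 0.251), and without Zmpste24-/- ventilated array 1, Herpud1 was at 0.25 (limma adjusted p = 0.225). Creld2 passed without wild type baseline array 3 (limma adjusted p = 0.0474) and Herpud1 without Zmpste24-/- baseline array 1 (limma adjusted p = 0.0370). Hyou1 (0.09 ± 0.10, limma adjusted p = 0.637), Sel1l (-0.02 ± 0.08, limma adjusted p = 0.928) and Sdf2l1 (-0.12 ± 0.12, limma adjusted p = 0.587) overlapped between the genotypes. The median over the 9 genes was 0.31, beside 0.01 over all genes.

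**Figure D3:**
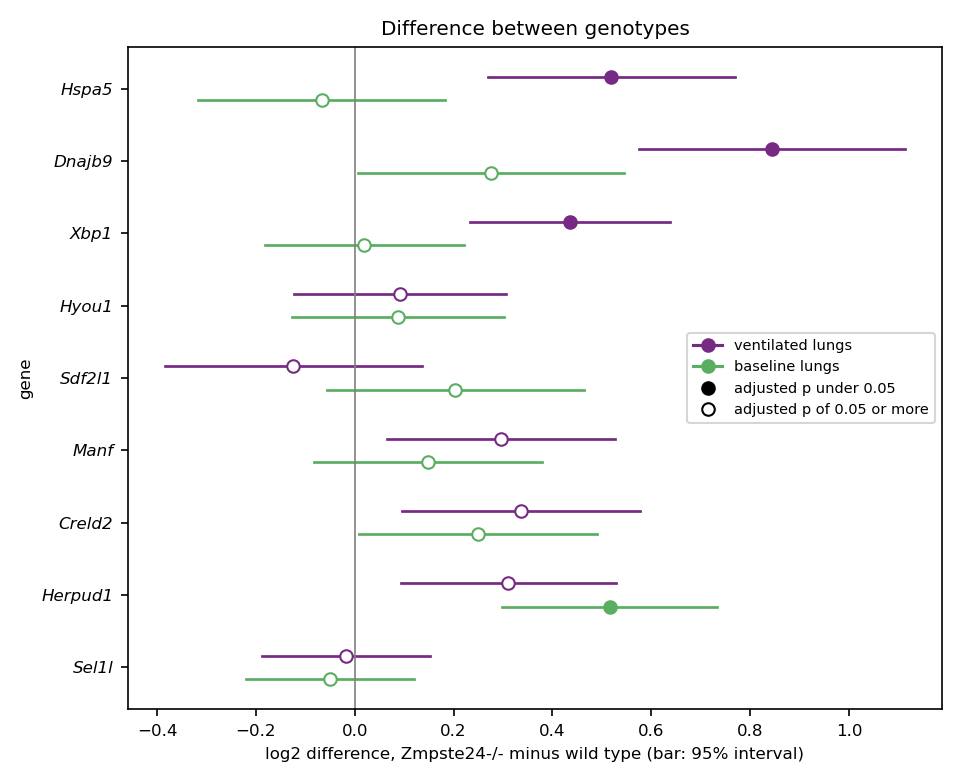
Log2 difference of Zmpste24-/- minus wild type lungs (x axis) for the 9 measured genes (y axis) in ventilated and baseline lungs, from limma over 12 arrays; bars are 95% intervals, filled points have an adjusted p under 0.05 and open points 0.05 or more. Dnajb9, Hspa5 and Xbp1 were filled in ventilated lungs (0.84, 0.52 and 0.44) and Herpud1 in baseline lungs (0.52).

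Without wild type baseline array 2, Hspa5 and Herpud1 no longer passed for ventilation in wild type lungs, and the other 7 differences, from -0.03 (Creld2) to 0.34 (Dnajb9), did not pass either (limma adjusted p from 0.208 to 0.959). At baseline the 8 genes other than Herpud1 differed between genotypes by -0.08 (Hspa5) to 0.34 (Dnajb9), with limma adjusted p from 0.200 to 0.865. The interaction was then 0.60 for Hspa5 (limma adjusted p = 0.274), 0.50 for Dnajb9 (limma adjusted p = 0.380) and 0.39 for Xbp1 (limma adjusted p = 0.380), and 0 of 9 passed. Over all genes, leaving out this array gave 1072 calls against 1597 for ventilation in wild type lungs, 878 against 1399 for genotype at baseline and 17 against 70 for the interaction.

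Across the 4 groups, the mean was highest in Zmpste24-/- ventilated lungs for 7 of the 9 genes, where 28.6% of all genes had their highest mean. The exceptions were Sdf2l1, highest in Zmpste24-/- baseline lungs, and Sel1l, highest in wild type baseline lungs. Xbp1 and Dnajb9 were also the members closest in profile to Hspa5. The root mean square difference of centred log2 values over the 12 arrays was 0.202 for Xbp1 and 0.230 for Dnajb9, and it grew through Hyou1 (0.284), Manf (0.296), Herpud1 (0.343), Creld2 (0.353) and Sel1l (0.420) to Sdf2l1 (0.462). The 5 genes outside the group nearest to Hspa5 were Utp4 (0.098), Ddx21 (0.102), 5430416N02Rik (0.109), Cldn7 (0.111) and Chd1 (0.113). Xbp1 held rank 227 and Dnajb9 rank 398 in likeness to Hspa5, so by this measure many genes outside the group lay nearer to Hspa5 than they did.

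Several cell type marker lists moved as well, while 0 of 6 macrophage and 0 of 5 club markers passed with ventilation in either genotype. The counts of the marker lists stand beside these shares of all genes. With ventilation, 8.89% rose and 7.52% fell in Zmpste24-/- lungs, and 3.67% and 3.53% in wild type lungs. In Zmpste24-/- relative to wild type, 4.72% were higher and 6.08% lower in ventilated lungs, and 2.2% and 4.11% at baseline. The mean log2 value of 8 neutrophil markers ranged from 8.89 to 9.09 in Zmpste24-/- ventilated lungs and 6.78 to 7.64 in Zmpste24-/- baseline lungs, and from 7.50 to 7.97 in wild type ventilated lungs and 6.33 to 7.12 in wild type baseline lungs. Of these 8 markers, 8 rose with ventilation in Zmpste24-/- lungs and 5 in wild type lungs, 7 were higher in Zmpste24-/- than in wild type ventilated lungs and 1 at baseline. Neutrophil markers, like Hspa5, Dnajb9 and Xbp1, were thus highest in Zmpste24-/- ventilated lungs, and the part of these cells in the rises of the 3 genes was not tested. Among 6 endothelial markers, 4 fell with ventilation in each genotype, and means ranged from 9.93 to 10.10 in Zmpste24-/- ventilated, 10.31 to 10.49 in Zmpste24-/- baseline, 10.15 to 10.33 in wild type ventilated and 10.69 to 10.77 in wild type baseline lungs. Among 5 fibroblast markers, 2 fell with ventilation in Zmpste24-/- lungs and 1 in wild type lungs. Their means did not overlap between groups, at 9.24 to 9.32 in Zmpste24-/- ventilated, 9.53 to 9.70 in Zmpste24-/- baseline, 9.75 to 9.79 in wild type ventilated and 9.88 to 10.12 in wild type baseline lungs. The 5 markers did not move together between genotypes. In ventilated lungs 1 was higher and 2 lower in Zmpste24-/-, with differences from -1.72 to 0.73 and a median of 0.01. At baseline 0 were higher and 2 lower, with differences from -1.17 to 0.42. Among 6 alveolar type 1 markers, 1 fell with ventilation in each genotype and 2 were higher in Zmpste24-/- than in wild type ventilated lungs. Their means were 10.47 to 10.56 in Zmpste24-/- ventilated and 10.60 to 10.73 in Zmpste24-/- baseline lungs. In wild type they were 10.16 to 10.39 in ventilated and 10.44 to 10.47 in baseline lungs. Between genotypes, 1 macrophage marker was higher in ventilated and 1 lower in baseline Zmpste24-/- lungs, and 0 club markers passed. The part of these cell types in the results of the 9 genes was not tested. Markers of the secretory cells known for this program had 0 genes that rose in Zmpste24-/- lungs, beside 8.89% of all genes. With so few markers, 0 lies near that share, and the part of these cells in the rises was not tested. Of 5 plasma cell markers other than Xbp1, which is on that list and rose, 0 passed with ventilation in Zmpste24-/- lungs. Of the 5, 1 lay below the array median on all arrays. Their means were 5.75 to 6.02 in Zmpste24-/- ventilated lungs, against 6.07 to 6.53 in Zmpste24-/- baseline lungs. Of 8 alveolar type 2 markers, 0 rose and 1 fell in the same comparison.

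The rest of the pathway gives the frame for these 9 genes. Among 11 sensors and signalling genes, 3 rose and 1 fell with ventilation in Zmpste24-/- lungs, with a median of 0.12. Over all genes, 8.89% rose and 7.52% fell. Ern1, the sensor that splices Xbp1 mRNA, rose by 0.83 ± 0.08 (limma adjusted p = 2.19e-05) in Zmpste24-/- lungs and by 0.39 ± 0.08 (limma adjusted p = 0.0121) in wild type lungs. The wild type call of Ern1 was lost in a fit of only the groups compared (limma adjusted p = 0.0549). Atf6, the second chaperone-inducing sensor, rose by 0.29 ± 0.09 in Zmpste24-/- lungs (limma adjusted p = 0.0337), and differed by 0.12 in wild type lungs (limma adjusted p = 0.494). The Atf6 call was lost without Zmpste24-/- baseline array 2 or 3 or Zmpste24-/- ventilated array 2 or 3 (adjusted p up to 0.123), and the difference was 0.19 after renewed quantile normalization (limma adjusted p = 0.123). Nfe2l2, the antioxidant regulator NRF2 and a PERK substrate, rose by 0.97 ± 0.11 in Zmpste24-/- lungs (limma adjusted p = 5.42e-05) and by 0.53 ± 0.11 in wild type lungs (limma adjusted p = 0.00958). Mbtps1, the protease that cleaves ATF6, fell by 0.34 in Zmpste24-/- lungs (limma adjusted p = 0.0132), a call lost without Zmpste24-/- baseline array 1 or Zmpste24-/- ventilated array 3 (adjusted p up to 0.0712). Creb3l2, an ATF6-related membrane transcription factor, passed in neither genotype, at 0.15 ± 0.10 in Zmpste24-/- lungs and -0.31 ± 0.10 in wild type lungs (limma adjusted p = 0.408 and 0.0804). The wild type difference of Creb3l2 was -0.41 and passed without wild type baseline array 1 (limma adjusted p = 0.0342).

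The remaining ER chaperones and folding enzymes include Hsp90b1, Calr and Canx. Of 24 measured, 2 rose and 2 fell with ventilation in Zmpste24-/- lungs, shares near the 8.89% and 7.52% of all genes, with a median of -0.08. In wild type lungs 0 rose and 1 fell, beside 3.67% and 3.53% of all genes. Txndc11, a thioredoxin-domain ER protein, rose by 0.59 ± 0.09 in Zmpste24-/- lungs (limma adjusted p = 0.000672). Ero1a, the oxidase that feeds disulfide formation, rose by 0.53 ± 0.11 in Zmpste24-/- lungs (limma adjusted p = 0.00534). With the mean of all its probes, the Ero1a difference was 0.27 and did not pass (limma adjusted p = 0.0534). Sil1, like Hyou1 a nucleotide exchange factor of BiP, fell by 0.42 in Zmpste24-/- lungs (limma adjusted p = 0.00486), and Cnpy2 fell there by 0.65 (limma adjusted p = 0.00303). Pdia5, a disulfide isomerase of the family of Pdia4, was the gene that fell in wild type lungs, by 0.51 (limma adjusted p = 0.00376).

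The 24 ER-associated degradation and translocon genes other than Herpud1 and Sel1l had 6 higher and 2 lower in Zmpste24-/- lungs, with a median of 0.12, and 1 higher and 0 lower in wild type lungs. Over all genes, 8.89% were higher and 7.52% lower in Zmpste24-/- lungs, and 3.67% and 3.53% in wild type lungs. The 2 lower genes and the 1 higher gene in wild type lungs were near these shares. Edem1, a lectin-like factor that delivers misfolded glycoproteins to degradation, rose by 0.42 ± 0.09 in Zmpste24-/- lungs (limma adjusted p = 0.00663). Nploc4, a cofactor of the p97 segregase, rose by 0.56 ± 0.09 in Zmpste24-/- lungs (limma adjusted p = 0.000862). Erlec1, an ER lectin, fell by 0.43 in Zmpste24-/- lungs (limma adjusted p = 0.00509), and Sec61b, a translocon subunit, fell there by 0.41 (limma adjusted p = 0.0110). The Sec61b call was lost without Zmpste24-/- baseline array 2 (adjusted p = 0.0537), and with the mean of all its probes the difference was -0.20 (limma adjusted p = 0.120).

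Larger differences than those of the 9 genes were found in the ATF4 and CHOP branch. In it 11 of 13 genes rose and 1, Vldlr, fell with ventilation in Zmpste24-/- lungs, with a median of 1.12, and 8 rose and 0 fell in wild type lungs, with a median of 0.56. Over all genes, 8.89% rose and 7.52% fell in Zmpste24-/- lungs, and 3.67% and 3.53% in wild type lungs. Atf4 rose by 1.51 ± 0.11 in Zmpste24-/- lungs (limma adjusted p = 1.75e-06) and by 0.96 ± 0.11 in wild type lungs (limma adjusted p = 0.000206). Ddit3, which encodes CHOP, rose by 1.07 ± 0.08 in Zmpste24-/- lungs (limma adjusted p = 3.55e-06) and by 0.45 ± 0.08 in wild type lungs (limma adjusted p = 0.00523). Its interaction passed, at 0.62 ± 0.12 (limma adjusted p = 0.0468), and was lost whichever of the 12 arrays was left out (adjusted p up to 0.129 without wild type baseline array 2). Ppp1r15a, which encodes the GADD34 subunit that restores translation, rose by 1.44 ± 0.14 in Zmpste24-/- lungs (limma adjusted p = 1.69e-05) and differed by 0.36 ± 0.14 in wild type lungs (limma adjusted p = 0.156). That wild type difference was 0.20 without wild type ventilated array 1 (limma adjusted p = 0.440), and 0.50 without wild type ventilated array 2, where it passed (limma adjusted p = 0.0496). The interaction of Ppp1r15a passed, at 1.08 ± 0.20 (limma adjusted p = 0.0437), and was lost when any 1 of 9 arrays was left out, the other three being wild type baseline array 1, wild type ventilated array 1 and Zmpste24-/- ventilated array 1 (adjusted p up to 0.114). Chac1, a glutathione-degrading enzyme, rose by 3.29 ± 0.22 in Zmpste24-/- lungs and 1.91 ± 0.22 in wild type lungs (limma adjusted p = 1.22e-06 and 0.000281). Slc7a11, the cystine transporter, rose by 4.30 ± 0.34 in Zmpste24-/- lungs and 4.18 ± 0.34 in wild type lungs (limma adjusted p = 3.89e-06 and 3.58e-05).

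The cytosolic counterparts of the ER chaperones also moved. All 10 measured cytosolic heat shock genes rose in Zmpste24-/- lungs, with a median of 1.34, and 4 rose in wild type lungs, with a median of 0.52. The shares of all genes that rose were 8.89% and 3.67%. Dnajb1, the cytosolic relative of Dnajb9, rose by 3.07 ± 0.22 in Zmpste24-/- lungs (limma adjusted p = 1.82e-06) and by 0.93 ± 0.22 in wild type lungs (limma adjusted p = 0.0204). The wild type call was lost without wild type baseline array 1 or 2 or wild type ventilated array 1 or 3 (adjusted p up to 0.0956). The interaction of Dnajb1 passed, at 2.14 ± 0.31 (limma adjusted p = 0.0159), and was lost without Zmpste24-/- baseline array 1 or Zmpste24-/- ventilated array 3 (adjusted p up to 0.0546). Hspa1a and Hspa1b, near-identical inducible copies whose signals cannot be fully told apart, rose by 4.88 ± 0.40 and 5.47 ± 0.52 in Zmpste24-/- lungs (limma adjusted p = 4.75e-06 and 1.47e-05). Both also rose in wild type lungs, by 3.11 ± 0.40 and 4.03 ± 0.52 (limma adjusted p = 0.000482 and 0.000532). Their interactions did not pass (limma adjusted p = 0.207 and 0.489). Hsp90aa1, the cytosolic Hsp90, rose by 1.27 ± 0.12 in Zmpste24-/- lungs (limma adjusted p = 1.89e-05), and Bag3, a co-chaperone of Hsp70, by 1.21 ± 0.13 (limma adjusted p = 3.64e-05). In wild type lungs Hsp90aa1 rose by 0.54 ± 0.12 (limma adjusted p = 0.0186), while the Bag3 difference of 0.24 ± 0.13 did not pass (limma adjusted p = 0.313). The interaction of Bag3 passed, at 0.97 ± 0.18 (limma adjusted p = 0.0441), and was lost in 11 of 18 alternatives (adjusted p up to 0.112). For comparison, the rise of Hspa5, the ER relative of Hspa1a and Hspa1b, was 1.00 ± 0.12 in Zmpste24-/- lungs.

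**Figure D4:**
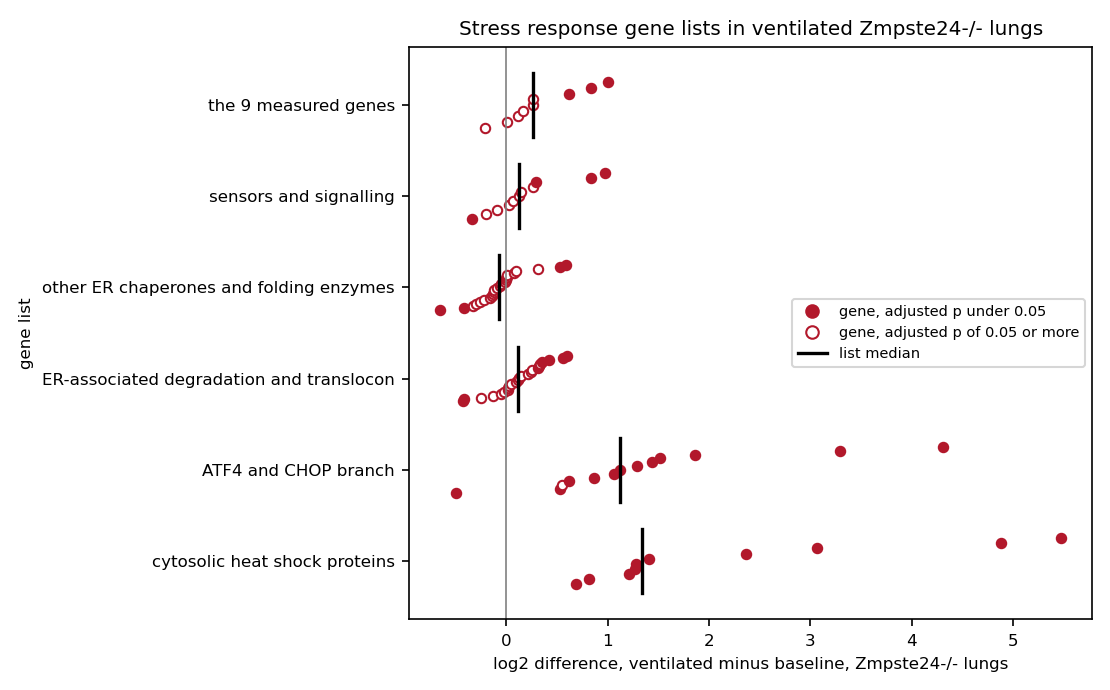
Log2 difference of ventilated minus baseline Zmpste24-/- lungs (x axis) for each gene of the 9 measured genes and 5 pathway lists (y axis); points are genes, filled with an adjusted p under 0.05 and open otherwise, and black lines are list medians. Medians were 0.26 for the 9 genes, 0.12, -0.08 and 0.12 for the other ER lists, 1.12 for the ATF4 and CHOP branch and 1.34 for the cytosolic heat shock proteins.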

How the data were processed

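The authors deposited normalized log2 expression values of 12 arrays, 1 per mouse. The tools listed per the submitters' processing notes are RMA and limma, with versions not given in the sources used here. That values are log2 was read from their range, 2.41 to 13.47. Groups came from the sample labels. Batches and detection were not tested, since the labels and the value table hold no scan date, slide or background level.

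Of 41345 probes, 23521 had 1 gene symbol in the platform annotation, 1814 several and 16010 none. Each of 22180 genes was read from its 1-symbol probe with the highest mean; no coordinates of probes are given. Symbols of 23328 of these probes matched RefSeq by gene ID. One linear model of the 4 group means was fitted over the 12 arrays (limma 3.58.1, R 4.3.3), with Benjamini-Hochberg adjustment over all genes of each of 5 comparisons and a threshold of 0.05. The procedure was tested on simulated data. An exact permutation test of 3 against 3 cannot give a p under 0.1. Precision was limited by 3 arrays per group.

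The members, pathway lists and markers were chosen with earlier results of these data known. Named outside the 9 genes are Zmpste24, up to 4 genes per list with the smallest adjusted p for ventilation in Zmpste24-/- lungs, 2 per list for the interaction, and the 5 genes nearest to Hspa5; Vldlr, Hsp90b1, Calr and Canx were named after their values were seen. The alternatives were a filter at the median of mean expression, the mean of all probes of a gene, subtraction of array medians, renewed quantile normalization, a fit of only the groups compared, a replicate block, eBayes with trend and robust, and each array left out.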

Additional observations from a re-analysis of the deposited data

How the results depend on the processing

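The rises of Hspa5, Dnajb9 and Xbp1 with ventilation in Zmpste24-/- lungs, the baseline difference of Herpud1 and the ventilated genotype differences of Dnajb9 and Xbp1 passed under all 7 other settings and without any single array. Over single members and settings, 813 of 846 values kept direction and side of the threshold or moved by less than 1 SE, 21 no longer passed, 10 newly passed, 2 moved further and 0 called values changed sign; sign changed in 25 cases, all with neither value passing. In wild type lungs the count of members that rose was 0 with array medians subtracted (Hspa5 0.39, limma adjusted p = 0.0612; Herpud1 adjusted p = 0.0693) and 0 in a fit of only the groups compared (Hspa5 adjusted p = 0.076, Herpud1 0.0599), where 923 instead of 1597 genes passed. Between ventilated genotypes 5 members passed with the filter at the median and 5 with array medians subtracted, Creld2 and Herpud1 added in both. Subtracting medians turned the split of all genes there to 1528 higher and 973 lower, against 1046 and 1349 as reported. The interaction called 152 genes with the filter, 26 after renewed quantile normalization and 112 with trend and robust eBayes, against 70. Without single arrays, members that passed numbered 3 to 4 (ventilation, Zmpste24-/-), 0 to 2 (ventilation, wild type), 1 to 1 (genotype, baseline), 2 to 4 (genotype, ventilated) and 0 to 0 (interaction); genes numbered 2432 to 3774, 799 to 1598, 646 to 1483, 1369 to 2510 and 8 to 118. The causes were not tested.

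Replicate numbers showed little sign of pairing the arrays: same-numbered arrays of different groups deviated with correlations of -0.129 to 0.153, 2 of 12 over 0.1, and 11 of 24 checks gave the best correlation with the own number. Between genotypes at baseline the same-numbered correlations were all positive (0.0953, 0.1531 and 0.0535), so pairing there is not excluded. With the number as a replicate block, 3479, 1463, 1358, 2315 and 43 genes and 3, 2, 1, 4 and 0 members passed in the 5 comparisons in the order above. Creld2 was the added member (limma adjusted p = 0.0343).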
